A study of Mus musculus with 59 samples.

Results

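The genes described here are 9 members of the cycle that moves glutamine and glutamate between astrocytes and neurons, out of 57180 gene rows counted in mouse cortex and hippocampus. They were taken by symbol: the glutamine transporters Slc38a1, Slc38a2, Slc38a3 and Slc38a5, the glutamine synthetase Glul, the plasma membrane glutamate transporters Slc1a2 and Slc1a3, and the vesicular glutamate transporters Slc17a6 and Slc17a7. Each symbol matched 1 row, and all 9 passed the filter on low counts in both tissues. The group was selected on the counts of double heterozygous and wild-type cortex, where Slc38a3 read lower in the former. The members' values in that comparison are therefore given as a description, and nothing is read from a test of them.

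Poly(A) RNA was sequenced from 30 male mice, 29 of them with both tissues and 1 with cortex alone, which gave 59 libraries. The mice carried, by their labels, both intact copies of Mrpl40 and Slc25a1 (wild type, WT; 9 cortex and 8 hippocampus libraries), 1 intact copy of Slc25a1 (Slc25a1 -/+, 7 and 7), 1 intact copy of Mrpl40 (Mrpl40 -/+, 7 and 7), or 1 intact copy of each (double heterozygous, 7 and 7). Mrpl40 is a component of mitochondrial ribosomes, which translate the genes of mitochondrial DNA, and Slc25a1 carries citrate out of mitochondria. Both genes lie in the chromosomal region deleted in DiGeorge syndrome, and the design asks how the loss of 1 copy of each acts alone and together. The labels leave out age, strain and the way each allele was made. The replicates of a group are separate animals, so p-values measure the spread between these animals.

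Libraries held 21443017 to 32120906 counted reads. Slc25a1 did not follow every label. Its level in CPM (reads scaled to library size) ranged from 12.1 to 26.2 in WT cortex, from 11.1 to 24.2 in Slc25a1 heterozygous cortex and from 10.8 to 21.9 in double heterozygous cortex. In 6 animals (2 WT, 2 Slc25a1 heterozygous and 2 double heterozygous) it lay on the side opposite to the label, so groups below are as labelled. Mrpl40 gave 16.1 to 20.7 CPM in WT cortex and 15.3 to 19.5 CPM in Mrpl40 heterozygous cortex, so it did not separate those groups. The labels do not say which part of Mrpl40 the allele lacks, so its counts may check nothing. The summed level of 10 hippocampus markers was 934 to 1819.7 CPM in hippocampus and 162.5 to 252 CPM in cortex, and that of 8 neocortex markers was 405 to 605 CPM in hippocampus and 1684 to 2323 CPM in cortex, as the tissue labels say. In hippocampus, the library of Slc25a1 heterozygous replicate 3 held 563 CPM of cerebellum markers, 72.3 times the tissue median, and double heterozygous replicate 6 and Mrpl40 heterozygous replicate 5 held 2.90 and 2.45 times the median of choroid plexus markers.

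Neurons that release glutamate cannot make enough of it on their own. Astrocytes take up released glutamate through Slc1a2 (GLT-1) and Slc1a3 (GLAST), Glul joins it with ammonia to make glutamine, and the glutamine leaves the cell through system N transporters, of which Slc38a3 (SNAT3) and Slc38a5 (SNAT5) are members. Neurons take glutamine up through system A transporters, including Slc38a1 (SNAT1) and Slc38a2 (SNAT2), convert it to glutamate with glutaminase, and load it into synaptic vesicles through Slc17a7 (VGLUT1) or Slc17a6 (VGLUT2). Slc17a7 is the main vesicular transporter of cortical and hippocampal principal cells, while Slc17a6 is the main one of thalamic and many other subcortical projection neurons.

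Promoters of the 3 astrocytic members that varied together across animals (below) are shown for comparison. RefSeq starts were found for 7 of the 9 members on GRCm38.p6, while Slc38a1 and Slc38a3 have no entry in the reference used. Whether a listed start is the main start of its gene was not checked. Each sequence is the 250 bases before the start on the gene's own strand, 5′ to 3′, at chr1:153899679-153899928 (plus strand) for Glul, chr2:102706188-102706437 (plus strand) for Slc1a2 and chr15:8710808-8711057 (minus strand) for Slc1a3. Capitals mark matches on either strand to the core of a GC box (GGGCGG), of a TATA box (TATAAA) and of a CCAAT box (its name is its sequence).
Glul: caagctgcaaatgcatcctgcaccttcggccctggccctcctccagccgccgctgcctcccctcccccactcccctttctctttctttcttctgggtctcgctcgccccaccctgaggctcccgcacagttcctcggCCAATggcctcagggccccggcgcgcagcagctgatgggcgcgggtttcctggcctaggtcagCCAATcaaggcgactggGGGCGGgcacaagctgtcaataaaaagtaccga
Slc1a2: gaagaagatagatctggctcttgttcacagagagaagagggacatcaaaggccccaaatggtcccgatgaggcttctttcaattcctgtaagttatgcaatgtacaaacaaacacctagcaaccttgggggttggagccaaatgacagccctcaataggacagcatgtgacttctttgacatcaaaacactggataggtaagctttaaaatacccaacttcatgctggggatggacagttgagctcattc
Slc1a3: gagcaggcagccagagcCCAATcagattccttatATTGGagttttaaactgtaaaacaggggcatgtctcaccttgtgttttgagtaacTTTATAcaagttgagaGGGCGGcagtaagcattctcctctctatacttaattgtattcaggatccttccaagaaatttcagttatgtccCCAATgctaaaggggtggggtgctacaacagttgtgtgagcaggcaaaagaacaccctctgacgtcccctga
The Glul window had 64.8% G and C and 15 CpG dinucleotides, against 44.8% and 1 for Slc1a2 and 44.8% and 2 for Slc1a3. Glul held 1 GC box and 2 CCAAT box matches, and Slc1a3 held 1 GC box, 1 TATA box and 3 CCAAT box matches. The Slc1a2 window shown held no match to any of the 3 motifs. Of 32851 promoter windows of the same length, 32.7% held a GC box match, 12.4% a TATA box match and 33.8% a CCAAT box match. Of these 3 windows, Glul thus had the most G and C, and only that of Slc1a2 held none of the motifs. Among windows of the other members, Slc38a2 was higher than Glul, at 72.0% G and C and 30 CpG dinucleotides. The rest ran from 41.2% to 61.2% G and C, and 1 Slc17a6 window also held none of the motifs.

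Levels were compared between genes as CPM per kilobase of exon (mean ± SD over the 30 cortex libraries). Glul had the highest level of the 9 members, at 522 ± 31.6. Slc17a7 followed at 277 ± 16.4 and Slc1a2 at 222 ± 11.3. Next came Slc1a3 at 68.0 ± 5.21. These astrocytic uptake and synthesis genes and the main vesicular transporter stood well above every glutamine transporter. Slc38a2 (13.1 ± 1.15), Slc38a3 (12.7 ± 1.06) and Slc38a1 (11.7 ± 0.726) followed far below Slc1a3, and neighbours among these 3 did not differ beyond their spread. Slc17a6 lay at 6.61 ± 0.960 and Slc38a5 at 0.920 ± 0.277. In the 29 hippocampus libraries the order was the same except that Slc38a3 (12.1 ± 1.71) stood before Slc38a2 (10.4 ± 1.15), again within their spread. Slc17a7 (266 ± 42.0) and Slc1a2 (237 ± 22.4) overlapped in hippocampus, as did Slc17a6 (2.96 ± 2.15) and Slc38a5 (1.71 ± 0.408). Slc38a5 rested on 26 to 186 reads per library, against 1197 to 2929 for Slc38a3.

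**Figure D1:**
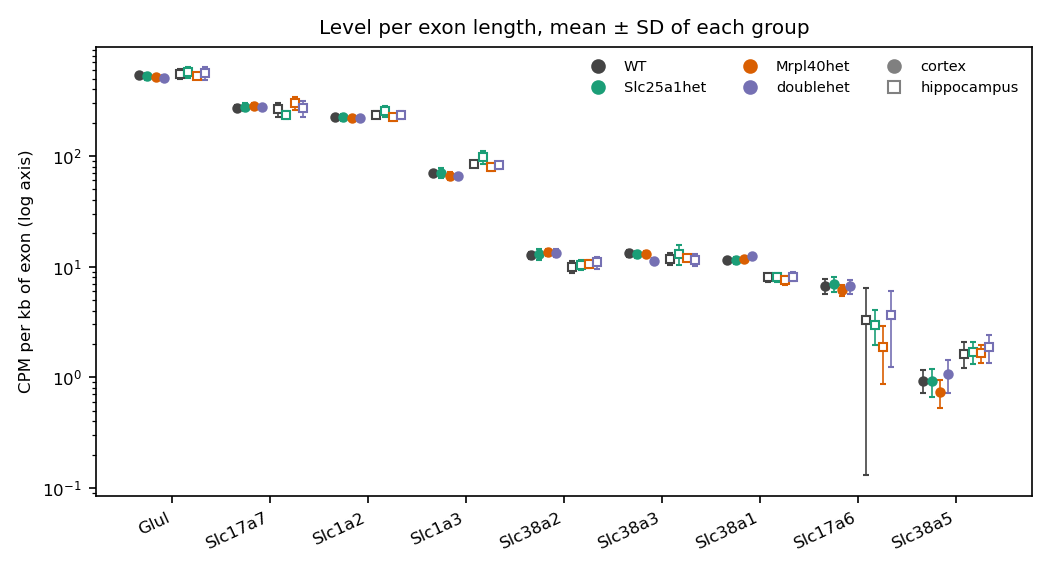
CPM per kilobase of exon on a log axis for the 9 members, with filled circles for cortex and open squares for hippocampus, coloured by genotype; points are group means and bars are SD over 7 to 9 libraries. In cortex the levels run from Glul at 522 to Slc38a5 at 0.920 (means over all 30 libraries), and the bars of Slc17a6 are widest in hippocampus.

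Slc38a3, which exports glutamine from astrocytes, was the member the group was picked for. In WT cortex its level ran from 63.0 to 79.4 CPM with a median of 69.5. In Slc25a1 heterozygous cortex the lowest, median and highest were 61.7, 70.7 and 75.4 CPM, and in Mrpl40 heterozygous cortex 61.1, 69.6 and 72.0 CPM. In double heterozygous cortex they were 56.8, 58.9 and 63.9 CPM. All 7 double heterozygous libraries lay below the median of each other genotype, and 5 of the 7 lay below every library of WT. The groups overlapped at the edge: 8 of 9 WT libraries, 5 of 7 Slc25a1 heterozygous and 6 of 7 Mrpl40 heterozygous libraries were above every double heterozygous one.

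The mean of Slc38a3 was 69.6 ± 4.60 CPM in WT cortex (SD, n = 9) and 59.8 ± 2.88 CPM in double heterozygous cortex (SD, n = 7). The log2 difference was -0.22 ± 0.04 (SE), and 0 of 9 members rose and 1 of 9 fell at an adjusted p under 0.05 in that comparison (edgeR), where 0.0686% of the 20394 genes tested did so; since the comparison chose the group, nothing is read from this count. Slc38a3 differed from Slc25a1 heterozygous cortex by -0.20 ± 0.05 and from Mrpl40 heterozygous cortex by -0.20 ± 0.05, and its interaction (double heterozygous minus both single heterozygous groups plus WT) was -0.18 ± 0.06. These 3 values share the double heterozygous libraries with the comparison that chose the gene and carry no test. Without the 6 animals whose Slc25a1 level went against the label, the difference from WT was -0.18 ± 0.05 and 0 of 9 members passed, and with a replicate block 0 of 9 passed as well. The 1 call also went when any of 7 libraries was left out (WT replicates 5 and 6, double heterozygous replicates 2, 4, 5, 6 and 7), with the difference between -0.24 and -0.19 over all such leave-outs.

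In the same cortex comparison all 16 astrocyte markers read lower in double heterozygous than in WT libraries, with 0 of 16 passing and a median log2 difference of -0.09, against -0.00 as the median of all genes. Their summed level was 3752 to 4371 CPM in WT and 3493 to 4053 CPM in double heterozygous cortex, and no marker was at 0 in any library. In Mrpl40 heterozygous cortex, where the Slc38a3 median was close to that of WT, the astrocyte sum was 3381 to 3959 CPM. Of 12 microglia markers 11 read lower in double heterozygous than in WT cortex and 1 passed, with a median of -0.13. Pan-neuronal markers summed to a higher median, 9003 CPM in double and 8993 CPM in Mrpl40 heterozygous against 8443 CPM in WT cortex. The other neuronal lists did not. Excitatory neuron markers had medians of 6755 CPM in double heterozygous and 6852 CPM in WT cortex, and inhibitory neuron markers 469 and 476 CPM. The part of any of these markers in the Slc38a3 difference was not tested. In bulk tissue, fewer cells of a type and less RNA per cell cannot be told apart.

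**Figure D2:**
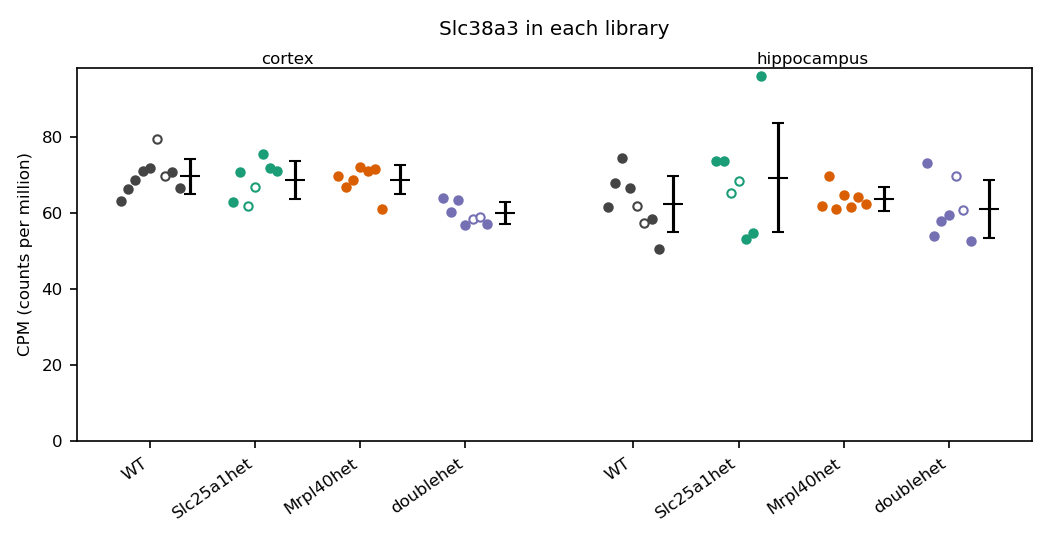
Slc38a3 in CPM for each library, by tissue and genotype, with the mean and SD of each group beside the points; open points are animals whose Slc25a1 level went against the label. In cortex the 7 double heterozygous points sit between 56.8 and 63.9 CPM, while the hippocampus groups overlap.

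In hippocampus, which the choice of the group did not use, Slc38a3 did not set double heterozygotes apart from WT. It ran from 50.4 to 74.3 CPM in WT (median 61.7), from 53.2 to 95.8 CPM in Slc25a1 heterozygotes (median 68.2), from 61.1 to 69.8 CPM in Mrpl40 heterozygotes (median 62.2) and from 52.4 to 73.0 CPM in double heterozygotes (median 59.4). The 4 groups overlapped, and no double heterozygous library lay below every WT library. Of the 7 double heterozygous libraries, 5 lay below every Mrpl40 heterozygous library and 1 above all of them. Against Slc25a1 heterozygotes, 1 of 7 lay below every library. The double heterozygous difference from WT was -0.03 ± 0.10 on the log2 scale (edgeR adjusted p = 1), with a 95% interval of -0.23 to 0.16. That interval holds 0 and also the value seen in cortex. The difference was 0.16 ± 0.10 for Slc25a1 heterozygotes (adjusted p = 0.722) and 0.02 ± 0.10 for Mrpl40 heterozygotes (adjusted p = 0.969). Slc38a3 differed between double and Slc25a1 heterozygous hippocampus by -0.19 ± 0.10 (adjusted p = 0.571) and between double and Mrpl40 heterozygous hippocampus by -0.06 ± 0.10 (adjusted p = 0.971). In hippocampus the interaction was -0.22 ± 0.14 (adjusted p = 0.999). The double heterozygous effect was 0.20 ± 0.10 higher in hippocampus than in cortex, a value that uses the cortex comparison behind the choice and is not tested; it was 0.10 ± 0.13 without the 6 animals named above.

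The difference of Slc38a3 from WT cortex was -0.02 ± 0.04 in Slc25a1 heterozygotes and -0.02 ± 0.04 in Mrpl40 heterozygotes, given without a test because the WT cortex libraries took part in choosing the gene. Across the 9 members, 0 passed in either comparison by edgeR or DESeq2, where 0% and 0.0294% of the 20394 genes tested passed by edgeR. At an unadjusted p under 0.05, 0 of 9 members passed in both, against 3.17% and 6.94% of all genes. No member was called in the double heterozygotes against Slc25a1 heterozygous cortex (0.0588% of genes) by edgeR, while DESeq2 called 1, Slc38a3. Against Mrpl40 heterozygous cortex 0 of 9 passed by either tool (0.0049% of genes by edgeR), as for the interaction (0%). At an unadjusted p under 0.05 the counts were 3 of 9 (9.92% of genes), 2 of 9 (6.94%) and 2 of 9 (5.35%). Slc38a3 was among them in each, and since these 3 comparisons share libraries with the choice of the group, nothing is read from that.

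Slc38a1, a neuronal system A transporter, gave 187 to 216 CPM in WT cortex with a median of 194. Slc25a1 heterozygous cortex gave 184 to 219 CPM (median 190) and Mrpl40 heterozygous cortex 189 to 218 CPM (median 203). Double heterozygous cortex gave 202 to 227 CPM, with a median of 210.5. The double heterozygous values lay at the upper end and overlapped those of each other group. The log2 difference from WT was 0.11 ± 0.04, given without a test. The difference from Slc25a1 heterozygotes was 0.12 ± 0.04 (edgeR adjusted p = 0.281) and that from Mrpl40 heterozygotes 0.08 ± 0.04 (adjusted p = 0.735). Neither passed.

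Slc38a2, the other system A transporter, which cells raise when amino acids are scarce, had means of 112 ± 8.95 CPM in WT cortex (SD, n = 9), 114 ± 12.4 CPM in Slc25a1 heterozygotes, 119 ± 9.53 CPM in Mrpl40 heterozygotes and 118 ± 9.92 CPM in double heterozygotes (SD, n = 7 each). Its means in hippocampus lay between 88.3 ± 10.5 CPM in WT and 96.4 ± 12.4 CPM in double heterozygotes. Each difference was smaller than the SD of either group compared.

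Slc38a5, the second system N transporter, was the least abundant member. It read 1.09 to 2.74 CPM in WT cortex (median 2.09), 1.23 to 2.48 CPM in Mrpl40 heterozygotes (median 1.55) and 1.56 to 3.83 CPM in double heterozygotes (median 2.18). These groups overlapped. Double against Mrpl40 heterozygous cortex differed by 0.54 ± 0.20 (edgeR adjusted p = 0.576), and Mrpl40 heterozygous against WT cortex by -0.35 ± 0.19 (adjusted p = 0.751). The interaction was 0.57 ± 0.28 (adjusted p = 0.927). Slc38a5 rested on 26 to 107 reads per cortex library.

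Glul, which makes glutamine, had means of 1778 ± 92.4 CPM in WT cortex, 1748 ± 134 CPM in Slc25a1 heterozygotes, 1714 ± 88.6 CPM in Mrpl40 heterozygotes and 1687 ± 98.8 CPM in double heterozygotes. The double heterozygous difference from WT was -0.08 ± 0.04 on the log2 scale, given as a description. Slc1a2, the main astrocytic glutamate transporter of the forebrain, kept closer still, with cortex means between 2894 ± 131 CPM in Mrpl40 heterozygotes and 2933 ± 143 CPM in WT. All 4 of its cortex means lay within 1 SD of each other.

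Slc1a3, the second astrocytic glutamate transporter, ran from 552 to 654 CPM in WT cortex (median 589), from 524 to 691 CPM in Slc25a1 heterozygotes (median 609) and from 521 to 601 CPM in double heterozygotes (median 556). The double heterozygous difference was -0.10 ± 0.05 from WT (a description) and -0.12 ± 0.05 from Slc25a1 heterozygotes (edgeR adjusted p = 0.419). In hippocampus Slc1a3 gave 657 to 778 CPM in WT, with a median of 734. Slc25a1 heterozygotes gave 701 to 1021 CPM, with a median of 834, and 4 of their 7 libraries lay above every WT library. Double heterozygotes gave 648 to 790 CPM, with a median of 702. The Slc25a1 heterozygous difference from WT was 0.21 ± 0.07 (adjusted p = 0.5), and the double heterozygous difference from Slc25a1 heterozygotes was -0.24 ± 0.07 (adjusted p = 0.363). Without the 3 hippocampus libraries rich in cerebellum or choroid plexus markers they were 0.19 ± 0.07 and -0.23 ± 0.07. Neither passed the adjusted test, and the Slc25a1 heterozygous effect was 0.19 ± 0.08 higher in hippocampus than in cortex (adjusted p = 0.816). Astrocyte markers moved the same way in hippocampus: 14 of 16 read higher in Slc25a1 heterozygotes than in WT, with 0 passing and a median of 0.06, and their summed level was 4243 to 5395 CPM against 4249 to 5273 CPM. Their part in the Slc1a3 difference was not tested.

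Slc17a7, which fills glutamatergic vesicles in principal cells, had cortex means between 1463 ± 83.9 CPM in WT and 1530.0 ± 77.5 CPM in Mrpl40 heterozygotes. In hippocampus the means were 1417 ± 202 CPM in WT, 1268 ± 110 CPM in Slc25a1 heterozygotes, 1613 ± 218 CPM in Mrpl40 heterozygotes and 1449 ± 250 CPM in double heterozygotes. The Mrpl40 heterozygous difference from WT was 0.18 ± 0.09 (edgeR adjusted p = 0.627) and the double against Slc25a1 heterozygous difference 0.18 ± 0.10 (adjusted p = 0.571). Neither passed. Of 8 pan-neuronal markers, 7 read higher in Mrpl40 heterozygotes than in WT hippocampus (median 0.10) and 8 in double than in Slc25a1 heterozygotes (median 0.20), with 0 passing in both. Their part was not tested.

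Slc17a6, the other vesicular transporter among the members, was the most variable member in hippocampus. It ran from 9.30 to 59.2 CPM in WT (median 11.0), from 9.71 to 26.5 CPM in Slc25a1 heterozygotes (median 15.8), from 1.22 to 19.1 CPM in Mrpl40 heterozygotes (median 10.1) and from 10.2 to 48.0 CPM in double heterozygotes (median 16.7). WT replicate 8 and double heterozygous replicate 1 stood far above the rest, and Mrpl40 heterozygous replicate 5, which rested on 34 reads, far below. The Mrpl40 heterozygous difference from WT was -0.82 ± 0.45 (edgeR adjusted p = 0.637) and -0.62 ± 0.45 without the 3 libraries named above, of which replicate 5 is 1. It was -0.22 ± 0.38 without WT replicate 8, and ranged from -1.05 to -0.22 over left-out libraries. The double against Mrpl40 heterozygous difference was 0.94 ± 0.47 (adjusted p = 0.958), and 0.55 ± 0.45 without double heterozygous replicate 1. In cortex its group means lay between 33.3 ± 3.73 and 37.7 ± 6.08 CPM.

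In hippocampus 0 of 9 members passed in any of the 6 comparisons of genotypes by edgeR or DESeq2. By edgeR 0% of the 20162 genes tested passed for Slc25a1 heterozygotes against WT, 0.00496% for Mrpl40 heterozygotes and 0.00992% for double heterozygotes, and 0% for double against either single heterozygote and for the interaction. At an unadjusted p under 0.05, 1 of 9 members (Slc1a3) passed for Slc25a1 heterozygotes against WT (7.77% of genes) and for double against Slc25a1 heterozygotes (9.04%). It was 0 of 9 for Mrpl40 heterozygotes (8.19% of genes) and double heterozygotes (5.28%) against WT, for double against Mrpl40 heterozygotes (4.68%) and for the interaction (3.39%). The difference of an effect between tissues passed for 0 of 9 members for any genotype by either tool, where 0%, 0% and 0.0234% of 21354 genes passed by edgeR. At an unadjusted p under 0.05 the counts there were 1 of 9 for Slc25a1 heterozygotes (Slc1a3; 6% of genes), 0 of 9 for Mrpl40 heterozygotes (5.83%) and 0 of 9 for double heterozygotes (5.03%).

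**Figure D3:**
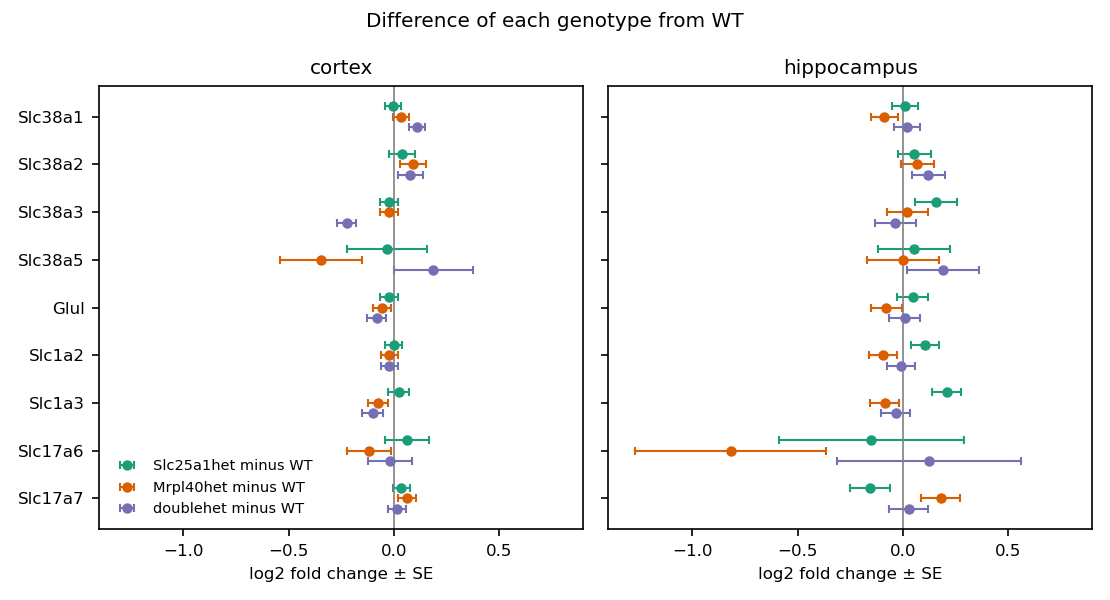
log2 fold change ± SE of each member against WT, in cortex (left) and hippocampus (right), for the 3 heterozygous genotypes. Slc38a3 in double heterozygous cortex lies at -0.22, and the bars of Slc17a6 in hippocampus and of Slc38a5 are the widest.

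In WT animals 6 of 9 passed for hippocampus against cortex of the same animals, 2 higher and 4 lower, where 60.6% of the 21354 genes tested passed (30.4% higher and 30.1% lower), so the share is near that of all genes. Slc38a3 is in this count, from which nothing is read for it, since its WT cortex values are part of the comparison that chose the group. Slc38a1 was lower in hippocampus in 29 of 29 animals, with a median ratio of 0.673, and by -0.51 ± 0.05 on the log2 scale in WT (edgeR adjusted p = 3.46e-11). Slc38a2 was also lower in 29 of 29 animals (median ratio 0.785; -0.33 ± 0.04 in WT, adjusted p = 1.9e-08). Both system A transporters among the members were thus lower in hippocampus in every animal. The summed level of 8 pan-neuronal markers was also lower there, 5069 to 8352 CPM against 7979 to 9497 CPM in cortex. That of 8 inhibitory neuron markers was lower without overlap, 164 to 299 CPM against 432 to 540 CPM. By contrast, 8 excitatory neuron markers had a higher median there, 8285 CPM against 6861 CPM. Their part was not tested.

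Of the system N transporters, Slc38a5 was higher in hippocampus in 28 of 29 animals (median ratio 1.77), by 0.69 ± 0.17 in WT (adjusted p = 0.000892). Slc38a3 is described without a test in WT and in double heterozygotes, whose cortex libraries chose it. It was lower in hippocampus in 7 of 8 WT animals, by -0.19 ± 0.07, and by -0.14 ± 0.09 without the 6 animals whose Slc25a1 level went against the label, and it was lower in 17 of 29 animals overall. In the other genotypes Slc38a3 differed between tissues by -0.01 ± 0.08 (Slc25a1 heterozygotes, adjusted p = 0.896), -0.11 ± 0.07 (Mrpl40 heterozygotes, adjusted p = 0.197) and 0.01 ± 0.08 (double heterozygotes).

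Of the astrocytic genes, Slc1a3 was higher in hippocampus in 29 of 29 animals (median ratio 1.27), by 0.26 ± 0.06 in WT (edgeR adjusted p = 0.000182). Slc1a2 differed by 0.07 ± 0.06 (adjusted p = 0.256) and Glul by 0.04 ± 0.06 in WT, and neither passed. The summed level of the 16 astrocyte markers was 4111 to 5395 CPM in hippocampus and 3381 to 4371 CPM in cortex. Its part in the Slc1a3 difference was not tested. Of the vesicular transporters, Slc17a6 was lower in hippocampus in 27 of 29 animals (median ratio 0.360; -1.28 ± 0.31 in WT, adjusted p = 0.000777), and Slc17a7 differed by -0.07 ± 0.07 (adjusted p = 0.456).

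In Slc25a1 heterozygotes 7 of 9 members passed between tissues (60.4% of genes), 3 higher (30.5%) and 4 lower (29.9%). In Mrpl40 heterozygotes 5 of 9 passed (60.3%), 2 higher (30.8%) and 3 lower (29.4%). In double heterozygotes 5 of 9 passed (57.5%), 2 higher (28.9%) and 3 lower (28.6%). At an unadjusted p under 0.05 the counts were also 6, 7, 5 and 5 of 9 in WT, Slc25a1, Mrpl40 and double heterozygotes, where 63.9%, 63.9%, 63.8% and 61% of genes passed. Slc38a1, Slc38a2, Slc38a5, Slc1a3 and Slc17a6 passed in all 4 genotypes in the same direction. Slc1a2 (0.18 ± 0.06, edgeR adjusted p = 0.0106) and Slc17a7 (-0.25 ± 0.08, adjusted p = 0.00717) passed in Slc25a1 heterozygotes, and neither passed in the other genotypes.

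**Figure D4:**
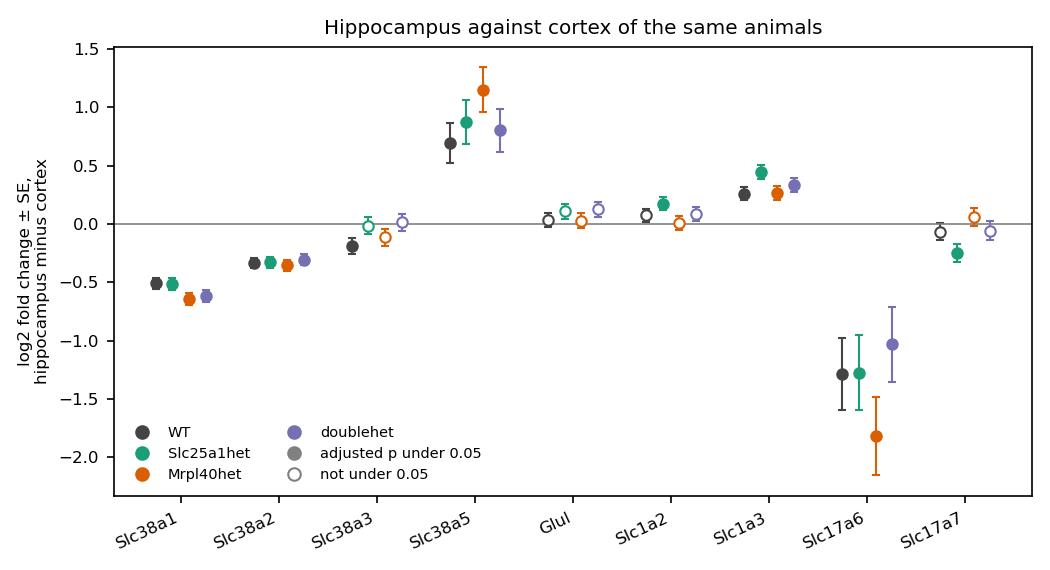
log2 fold change ± SE of hippocampus minus cortex for each member in each genotype; filled points passed the test at an adjusted p under 0.05 and open points did not. Slc38a1 and Slc38a2 lie below 0 and Slc38a5 and Slc1a3 above 0 in all 4 genotypes, and Slc17a6 lies lowest, at -1.28 in WT.

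Within genotypes, Glul, Slc1a2, Slc1a3 and, most closely in hippocampus, Slc38a3 varied together from animal to animal. Each library was taken as its deviation from its genotype's mean log2 CPM, and all 72 pairs of members (36 in each tissue) were computed. In hippocampus (29 libraries) Glul and Slc38a3 had a Pearson r of 0.87 and a Spearman rho of 0.89 (permutation test, two-sided, Benjamini-Hochberg adjusted p = 9e-05 and 0.00012), and r was 0.88 without the 2 libraries farthest out. Slc1a2 and Slc1a3 had r = 0.87 and rho = 0.85 (adjusted p = 9e-05 and 0.00012), and 0.84 without 2 libraries. These p-values come from the smallest that 100000 permutations can give, 1e-05. In cortex (30 libraries) Glul and Slc1a2 had r = 0.83 and rho = 0.82 (adjusted p = 9e-05 and 0.00012), and 0.80 without 2 libraries, whereas Glul and Slc38a3 had r = 0.51 and rho = 0.45 (adjusted p = 0.0150 and 0.0393), and 0.38 without 2 libraries. Slc38a5 followed them less regularly: in hippocampus its r was 0.48 with Glul (rho = 0.38, adjusted p = 0.0291 and 0.0986; 0.51 without 2 libraries) but 0.16 with Slc1a2 (rho = 0.12, adjusted p = 0.551 and 0.635; 0.24 without 2 libraries). Slc38a1 and Slc1a3 in cortex had r = -0.73 and rho = -0.70 (adjusted p = 9e-05 and 0.00036), and -0.62 without 2 libraries, while in hippocampus they had r = 0.04 and rho = 0.12 (adjusted p = 0.884 and 0.640; 0.14 without 2 libraries). In hippocampus the 2 vesicular transporters had r = -0.63 and rho = -0.58 (adjusted p = 0.00137 and 0.00748), and -0.53 without 2 libraries. In all, 9 pairs in cortex and 9 in hippocampus passed with a positive r, and 6 and 4 with a negative r.

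The same deviations were set against the mean log2 CPM of 13 marker lists, 234 relations in all, of which 36 of 117 in cortex and 30 of 117 in hippocampus passed at an adjusted p under 0.05. Slc38a3 followed the astrocyte markers, with r = 0.74 and rho = 0.69 in cortex (adjusted p = 0.000111 and 0.000246; 0.65 without 2 libraries) and r = 0.86 and rho = 0.81 in hippocampus (adjusted p = 0.000111 and 0.00018; 0.84 without 2 libraries). In hippocampus it followed microglia markers as closely, with r = 0.89 and rho = 0.91 (adjusted p = 0.000111 and 0.00018; 0.86 without 2 libraries), and Glul did so more closely still, with r = 0.94 and rho = 0.95 (adjusted p = 0.000111 and 0.00018; 0.93 without 2 libraries). Slc38a3 also followed endothelial markers in cortex, with r = 0.68 and rho = 0.65 (permutation adjusted p = 0.000468 and 0.000712). In hippocampus these were 0.75 and 0.71 (permutation adjusted p = 0.000292 and 0.000446). Without 2 libraries r was 0.58 in cortex and 0.78 in hippocampus. The relation was therefore not particular to astrocyte markers in either tissue. Slc38a1 followed the pan-neuronal markers in cortex, with r = 0.82 and rho = 0.80 (adjusted p = 0.000111 and 0.000246; 0.76 without 2 libraries). In hippocampus it did so less closely, with r = 0.46 and rho = 0.44 (permutation adjusted p = 0.0473 and 0.0607). That r was 0.24 without 2 libraries. Slc38a2 did not follow them, with r = 0.05 in cortex and 0.11 in hippocampus (permutation adjusted p = 0.870 and 0.715). In hippocampus Slc17a6 followed the neocortex markers, with r = 0.80 and rho = 0.78 (adjusted p = 0.000111 and 0.00018; 0.67 without 2 libraries), while Slc17a7 went against them, with r = -0.74 and rho = -0.72 (adjusted p = 0.000111 and 0.000532; -0.66 without 2 libraries). Slc17a7 followed the pan-neuronal markers there, with r = 0.78 and rho = 0.77 (adjusted p = 0.000111 and 0.00018; 0.75 without 2 libraries). In cortex Slc17a6 also followed the neocortex markers, with r = 0.63 and rho = 0.60 (permutation adjusted p = 0.00148 and 0.00397). That r was 0.51 without 2 libraries. With thalamus markers in cortex, Slc17a6 had r = -0.43 and rho = -0.41, and neither passed (permutation adjusted p = 0.0559 and 0.0725).

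**Figure D5:**
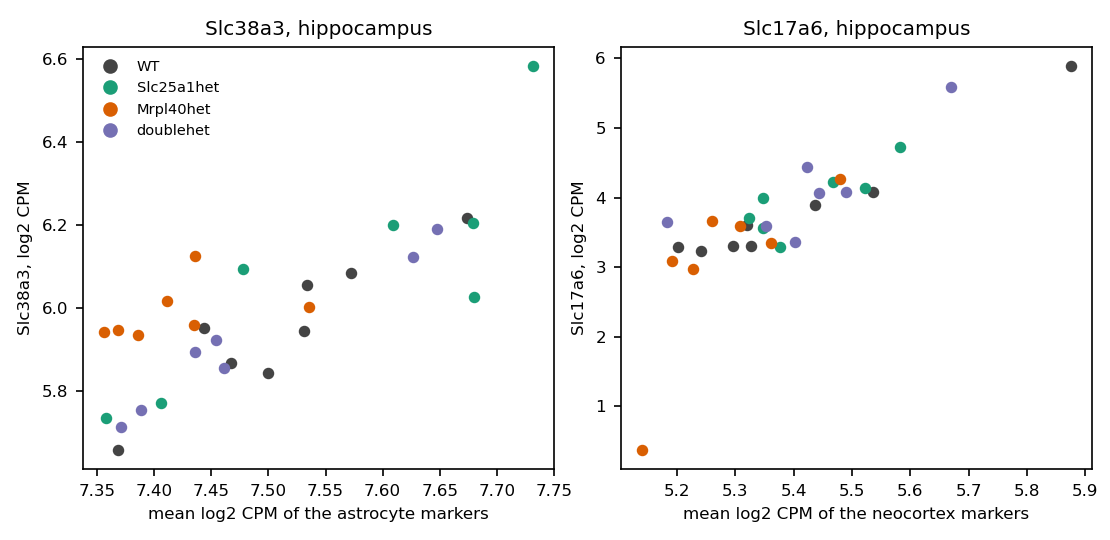
Hippocampus libraries, coloured by genotype: Slc38a3 in log2 CPM against the mean log2 CPM of 16 astrocyte markers (left), and Slc17a6 in log2 CPM against that of 8 neocortex markers (right). Within genotypes r was 0.86 on the left and 0.80 on the right, where WT replicate 8 is the highest point and Mrpl40 heterozygous replicate 5 the lowest.

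The genes most like each member, by Pearson r of the same deviations among 10435 genes in cortex and 10452 in hippocampus, are given as a description. For Slc38a3 in cortex they included Maob (0.79), Abhd3 (0.74), Klhl5 (0.71) and Mlc1 (0.71), of which Mlc1 is on the astrocyte marker list. In hippocampus they were Dazap2 (0.92), Cst3 (0.91), Asrgl1 (0.90), Ephx2 (0.88) and Elovl5 (0.88). Ezr was among the 3 most like Glul in both tissues (0.84 in cortex and 0.95 in hippocampus). Slc17a7 was closest to Spock2 in cortex (0.94) and to Amph in hippocampus (0.97), and Slc38a1 to Atp2a2 in cortex (0.92) and to Jup in hippocampus (0.86). Slc17a6 was closest to Rgs4 in cortex (0.79) and to Rxfp1 (0.93), Tshz2 (0.92) and Rnf207 (0.90) in hippocampus.

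The wider glutamate and glutamine pathway (39 genes of transport, glutaminase, transamination, GABA and proline metabolism, 37 of them tested in each tissue) held 0 genes past the edgeR test in any comparison of genotypes in either tissue. At an unadjusted p under 0.05 the counts against WT in cortex were 0 of 37 for Slc25a1 heterozygotes (3.17% of all genes), 3 of 37 for Mrpl40 heterozygotes (6.94%) and 5 of 37 for double heterozygotes (10.9%). In hippocampus they were 4 of 37 (7.77% of all genes), 4 of 37 (8.19%) and 0 of 37 (5.28%). DESeq2 made the same call as edgeR for each pathway gene named here. Prodh, the first enzyme of proline breakdown, had the smallest p in double heterozygous cortex, at -0.17 ± 0.06 (edgeR adjusted p = 0.242), followed by the neuronal glutamate transporter Slc1a1 at 0.13 ± 0.05 (adjusted p = 0.272). Prodh lies on chromosome 16, as do Slc25a1 and Mrpl40, and any part of that position in its difference was not tested. Slc17a8, the third vesicular glutamate transporter, differed from WT by 0.41 ± 0.14 in Mrpl40 heterozygous cortex (adjusted p = 0.563) and by -0.27 ± 0.15 in Slc25a1 heterozygous cortex (adjusted p = 1). The other smallest p-values against WT in cortex belonged to Slc7a8, an amino acid exchanger, at 0.10 ± 0.04 (Mrpl40 heterozygotes, adjusted p = 0.664) and to Slc1a6, a glutamate transporter of Purkinje cells, at 0.11 ± 0.08 (Slc25a1 heterozygotes, adjusted p = 1).

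In hippocampus the smallest p-values of the pathway belonged to Got2, the mitochondrial aspartate aminotransferase (-0.12 ± 0.05, not passing) and the cystine-glutamate exchanger Slc7a11 (0.29 ± 0.12, edgeR adjusted p = 0.591) in Slc25a1 heterozygotes. In Mrpl40 heterozygotes they belonged to the GABA-producing enzyme Gad1 (-0.17 ± 0.06, adjusted p = 0.587) and Slc1a1 (0.13 ± 0.06, adjusted p = 0.590). In double heterozygotes they belonged to Slc1a1 (0.07 ± 0.06, adjusted p = 0.989) and the alanine aminotransferase Gpt2 (0.09 ± 0.07, adjusted p = 0.989). Between tissues in WT, 9 of 37 pathway genes were higher and 16 lower in hippocampus, where 30.4% and 30.1% of all genes were, with a median of -0.10 against 0.01 over all genes. The liver-type glutaminase Gls2 fell by 1.19 ± 0.07, the amino acid transporter Slc38a4 fell by 0.68 ± 0.23, and the mitochondrial glutamate carrier Slc25a18 fell by 0.51 ± 0.06 on the log2 scale (edgeR adjusted p = 5.53e-16, 0.0102 and 1.87e-09). Slc38a4 was near the floor, with means of 0.87 CPM in cortex and 0.55 CPM in hippocampus over all genotypes. Gpt, Got1 and Aldh18a1 fell by 0.43 ± 0.08, 0.32 ± 0.05 and 0.26 ± 0.05. Slc17a8 rose by 0.76 ± 0.15, Slc1a1 by 0.63 ± 0.04 and the proline-pathway dehydrogenase Aldh4a1 by 0.44 ± 0.06, followed by the mitochondrial glutamate carrier Slc25a22 (0.31 ± 0.09), Slc38a10 (0.26 ± 0.04) and Aldh5a1 (0.23 ± 0.03).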

How the data were processed

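The deposited table holds whole-number counts of reads per gene for 59 libraries of poly(A) RNA from a stranded kit. The submitters' processing notes name FastQC, HISAT2, featureCounts and DESeq2 and the build mm39 (GRCm39), without versions or roles; no source used here gives the settings the authors chose. Samples were grouped by the genotype and tissue of their labels. The members, the marker and pathway lists and the tests were chosen with earlier results of these data known.

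Genes passing filterByExpr were tested with edgeR 4.0.16 (R 4.3.3; TMM scaling, robust quasi-likelihood test, Benjamini-Hochberg adjusted p under 0.05), with the 4 genotypes of a tissue in 1 fit. Tissues were compared with the animal as a block in 29 animals. CPM used TMM over all 59 libraries, log2 CPM a prior count of 2, and CPM per kilobase the union exon length of a GRCm38 annotation matched by gene ID. Libraries held 21443017 to 32120906 reads.

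On simulated data with known changes the test recovered, of 1.2-fold, 1.5-fold and 2-fold changes, 44.8%, 86.6% and 98.5% for double heterozygous against WT cortex (20394 genes), 40.3%, 79.1% and 98.5% for the same in hippocampus (20162 genes), and 50.7%, 80.6% and 93.9% between tissues in WT (21354 genes). The changes were placed in 67, 67 and 66 genes above a low level, and all other genes had no difference between groups. No animal effect was simulated, and far more genes differed between the real tissues, so the rates need not hold there.

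Alternatives were DESeq2 1.42.0, its size factors in edgeR, no filter on low counts, a replicate block, only the genotypes compared, and leaving out each library (between tissues, each WT animal). Chosen after seeing the data were leaving out the 6 animals on the other side of 17.0 CPM of Slc25a1 in cortex from their label, leaving out the 3 hippocampus libraries with cerebellum markers above 10 or choroid plexus markers above 2 times the tissue median, length and GC trends as offsets, the relations with marker lists and between members, and the 3 promoter motifs. Named genes are the members, the pathway genes with the 2 smallest p-values against WT and the 6 largest rises and falls between tissues, and the most alike genes by rank, 1 of which is not reported here. Single fold changes are given for Slc38a3 in every comparison, for members with an unadjusted p under 0.1 and for all members between tissues in WT, 64 of 171 in all, a rule also set after the values were seen.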

Additional observations from a re-analysis of the deposited data

Results flagged for a closer look

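Of 72 groups of libraries checked for a single value far from the rest (9 members in 8 groups), 9 had one. Chance alone flags about 5% of such groups. In hippocampus, Slc17a6 stood at 59.2 CPM in WT replicate 8, with the nearest library at 16.9, and at 48.0 CPM in double heterozygous replicate 1, with the nearest at 21.7. Slc38a2 stood at 113 CPM in that same WT replicate 8 (nearest 88.8) and at 70.9 CPM in Slc25a1 heterozygous replicate 7 (nearest 87.3). Slc38a1 stood at 166.5 CPM in Slc25a1 heterozygous replicate 3 (nearest 139), the library rich in cerebellum markers, and at 155 CPM in Mrpl40 heterozygous replicate 5 (nearest 129), a library rich in choroid plexus markers. The part of those markers was not tested. Slc38a3 stood at 69.8 CPM in Mrpl40 heterozygous replicate 2 (nearest 64.7) and Slc38a5 at 5.59 CPM in Slc25a1 heterozygous replicate 4 (nearest 3.99). In cortex, Slc1a2 stood at 3163 CPM in Mrpl40 heterozygous replicate 6 (nearest 2899.6).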

How the results depend on the processing

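The 1 member past the test in double heterozygous against WT cortex, Slc38a3, became 0 with a replicate block and without the 6 animals whose Slc25a1 level went against the label, and ranged from 0 to 1 when single libraries were left out. Against Slc25a1 heterozygous cortex the count of 0 became 1 with DESeq2 and with no filter on low counts, and ranged from 0 to 1 over left-out libraries (1 without Slc25a1 heterozygous replicate 1). Both comparisons use the double heterozygous cortex libraries that took part in choosing the group, so nothing is read from these counts. Over all genes, double heterozygous against WT cortex gave 14 calls, 99 with DESeq2, 22 with no filter, 8 with a replicate block and 2 without the 6 animals. The cause was not tested.

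Small differences of Slc38a3 changed sign. Without the 6 animals they were 0.0065 for Mrpl40 and 0.044 for Slc25a1 heterozygotes against WT cortex, and -0.037 between tissues in double heterozygotes. Over left-out libraries they ranged from -0.039 to 0.0056 (Mrpl40 heterozygotes, cortex), -0.047 to 0.0051 (Slc25a1 heterozygotes, cortex), -0.018 to 0.063 (Mrpl40 heterozygotes, hippocampus) and -0.085 to 0.0067 (double heterozygotes, hippocampus), and Glul between tissues in WT from -0.0071 to 0.065. With a replicate block, Slc38a3 in Mrpl40 heterozygous against WT hippocampus was -0.054, and with no replicate block its difference between tissues in Slc25a1 heterozygotes was 0.0077. Counting also the single values not given here, 213 refits over 51 results changed sign and 3217 kept their direction and side of the threshold.

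Whether replicate numbers pair the genotypes is not given by the labels: libraries with the same number had a median correlation of 0.126 in cortex (-0.405 to 0.532; -0.0232 for other pairs) and 0.0531 in hippocampus (-0.455 to 0.527; 0.00985 for other pairs) over 5000 genes, and not every pair was positive. The 2 tissues of 1 animal had 0.109 (-0.0294 to 0.414; -0.00987 for other pairs). Depth limits Slc38a5, with as few as 26 reads in a library, and Slc38a4, which was less abundant still.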
